A study of Danio rerio with 10 samples.

Results

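Transcript levels of 10 genes of the ATF4 arm of the integrated stress response were followed in zebrafish embryos exposed to thallium. They are the transcription factors atf4a, atf4b, atf5a, atf5b, atf3 and ddit3, the regulators trib3 and sesn2, the enzyme gene chac1 and asparagine synthetase, asns. The members were drawn up by name, and asns (ENSDARG00000016375) and atf5b (ENSDARG00000077785) by gene ID, after the comparison of 800 ppb with 0 ppb had been seen. They were thus chosen by pathway, with the read counts of that comparison in view. All 10 were found among the 32057 genes of the count files. Their values at 800 ppb against 0 ppb are therefore a description, and nothing is supported by them.

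In the integrated stress response, kinases that sense amino acid shortage, unfolded protein in the endoplasmic reticulum, haem shortage or viral RNA phosphorylate the initiation factor eIF2alpha. General translation then slows while ATF4 is translated more, through short upstream reading frames in its mRNA, so the activity of ATF4 can change with little change of its transcript. ATF4 binds DNA together with C/EBP and other bZIP partners and activates genes for amino acid synthesis and uptake, for tRNA charging and for its own feedback. The teleost lineage kept a pair of genes each for ATF4 and ATF5.

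RNA was sequenced from whole wild-type embryos kept from 6 to 48 hours post fertilisation in thallium nitrate (TlNO3) at 0 ppb (5 libraries), 200 ppb (3 libraries) or 800 ppb (2 libraries). Separate clutches are not named in the labels. The spread that the p-values rest on may therefore be technical in part. A hospital's core facility built replicate 1 of 0 ppb and of 200 ppb, and a commercial provider built the remaining 8. The libraries held 12.1 to 48.3 megareads.

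The labels name these sites but no batch. The provider's 8 libraries were grouped into 3 library batches by how their deposited counts differed, gene by gene, from the reads behind a second deposited table, which does not use dose, and the 2 hospital libraries were taken as a batch of their own. The replicates numbered 1, 2 and 3 of 0 and 200 ppb formed 3 such batches of 2 libraries, and 0 ppb replicates 4 and 5 shared the fourth with both 800 ppb libraries. No batch held 200 and 800 ppb together. Of 41 marker genes of embryonic tissues, 40 reached 1 CPM in every library and 0 were at 0. In whole embryos, fewer cells of a type and less RNA per cell cannot be told apart. Levels are given in CPM, the reads of a gene scaled to a common total with TMM factors; gene length was not used, so levels are compared between samples and not between genes.

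Asparagine synthetase, which makes asparagine from aspartate with nitrogen from glutamine and is a classical ATF4 target, was about as high in every unexposed library. Its levels at 0 ppb were 33.7, 31.6, 27.4, 27.1 and 32.4 CPM in replicates 1 to 5. At 200 ppb they were 36.3, 37.1 and 32.6 CPM, and at 800 ppb 70.22 and 52.5 CPM. Both 800 ppb libraries lay above all 8 others, and replicate 1 was the higher. Against the mean of both 0 ppb libraries of their own batch, the 800 ppb libraries stood at 2.36-fold and 1.77-fold. The log2 fold change at 800 ppb was 1.04 (SE 0.14) with the site as a term and 1.05 (SE 0.13) with the batch as a term. It ranged from 0.81 to 1.23 with the site term when each library was left out in turn, the lowest without 800 ppb replicate 1.

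sesn2 encodes a sestrin, which in mammals restrains mTORC1 and is induced by ATF4. Its levels were 5.33, 8.45, 5.12, 8.61 and 7.39 CPM at 0 ppb, 6.38, 11.4 and 7.10 CPM at 200 ppb, and 20.3 and 16.5 CPM at 800 ppb. Both 800 ppb libraries were above every other library here too, the nearest being 200 ppb replicate 2. The log2 fold change at 800 ppb was 1.31 (SE 0.24) with the site term and 1.21 (SE 0.18) with the batch term, the largest among the members with either term. This rests on 76 to 292 reads per library, the fewest of the measured members along with atf3.

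**Figure D1:**
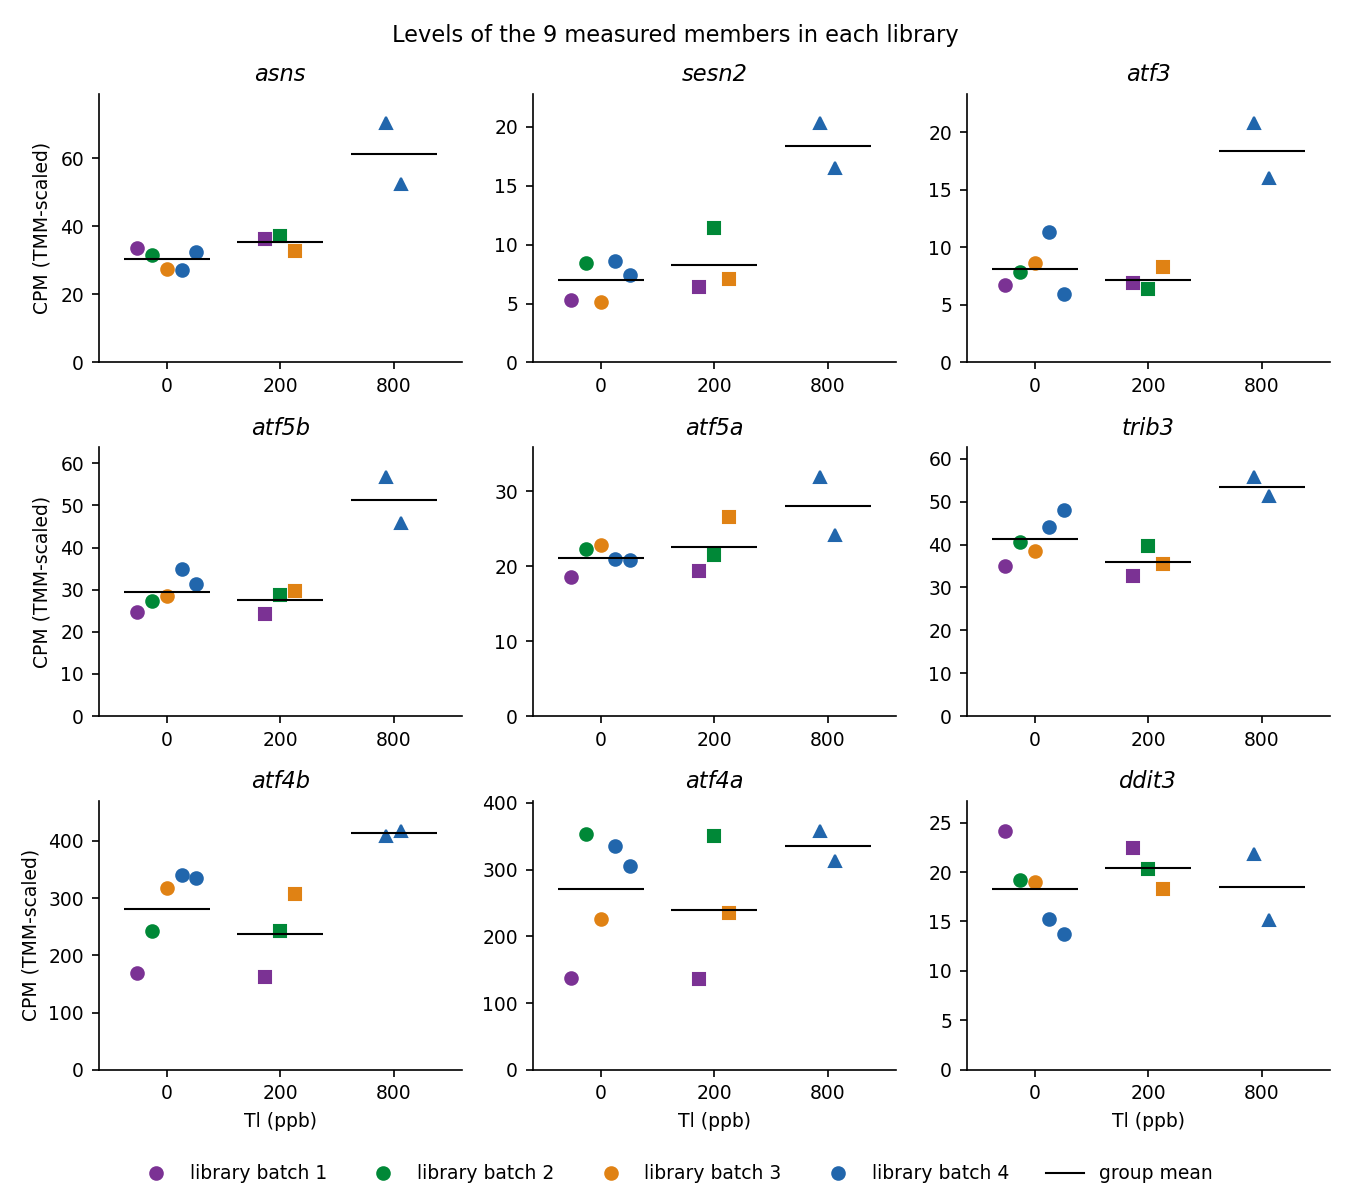
Levels of the 9 measured members in each library (CPM, y axes start at 0) by thallium concentration; colours mark the library batch, shapes the dose, and black lines the group means (5, 3 and 2 libraries). The asns, sesn2, atf3, atf5b, atf4b and trib3 points at 800 ppb lie above all points at 0 and 200 ppb, while 1 of the 2 atf4a points and both ddit3 points at 800 ppb lie within the range of the 0 ppb points.

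atf3, a bZIP factor switched on early by many stresses, varied most between its controls within a batch. At 0 ppb it stood at 6.77, 7.89, 8.63, 11.3 and 5.96 CPM, so that the highest and the lowest control were both in the batch of 800 ppb. At 200 ppb it stood at 6.94, 6.39 and 8.26 CPM and at 800 ppb at 20.8 and 16.0 CPM. The 800 ppb libraries did not overlap with any other. The log2 fold change at 800 ppb was 1.15 (SE 0.23) with the site term and 1.11 (SE 0.24) with the batch term, and with the batch term it moved to 1.63 without 0 ppb replicate 4 and to 0.71 without 0 ppb replicate 5.

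The ATF5 pair encodes bZIP factors closely related to ATF4, which in mammals also respond to mitochondrial stress. atf5b was at 24.8, 27.4, 28.4, 34.9 and 31.2 CPM at 0 ppb, at 24.1, 28.9 and 29.7 CPM at 200 ppb, and at 56.7 and 45.8 CPM at 800 ppb. Its log2 fold change at 800 ppb was 0.75 (SE 0.14) with the site term and 0.64 (SE 0.12) with the batch term. Its paralog atf5a was at 18.5, 22.3, 22.9, 20.9 and 20.8 CPM at 0 ppb, at 19.4, 21.5 and 26.6 CPM at 200 ppb, and at 31.9 and 24.2 CPM at 800 ppb. The 800 ppb libraries of atf5a were above the controls but straddled 200 ppb replicate 3, and the log2 fold change was 0.36 (SE 0.15) with the site term and 0.43 (SE 0.14) with the batch term. Without 800 ppb replicate 1 it was 0.15 and 0.21 with these terms, and without replicate 2 0.55 and 0.61. Of the reads counted for the pair, atf5b took 60.0 and 62.5% in the 0 ppb libraries of the 800 ppb batch and 64.0 and 65.5% at 800 ppb. In the other 6 libraries its share was 52.7 to 57.3%, below all 4 libraries of that batch.

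The ATF4 pair differed between batches far more than between doses. atf4a ranged 2.56-fold among the 5 controls, with 138, 353, 227, 335 and 305 CPM, and the 200 ppb libraries followed their batch partners at 136, 350 and 234 CPM. At 800 ppb atf4a was at 358 and 313 CPM, 1.12-fold and 0.977-fold of the mean of its batch controls, and its log2 fold change was 0.14 (SE 0.19) with the site term and 0.07 (SE 0.08) with the batch term. atf4b was at 169, 242, 318, 340 and 335 CPM at 0 ppb, at 163, 242 and 307 CPM at 200 ppb, and at 408 and 418 CPM at 800 ppb. Both 800 ppb libraries of atf4b were above every other, 1.21-fold and 1.24-fold over the controls of their batch. The log2 fold change of atf4b was 0.43 (SE 0.15) with the site term and 0.29 (SE 0.07) with the batch term.

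The mixture of the ATF4 paralogs also followed the batch. atf4a took 59.3 and 59.1% of the reads of the pair in the replicates numbered 2, at 0 and 200 ppb. It took 44.9 and 45.5% in those numbered 1, and 41.6 and 43.3% in those numbered 3. In the batch of 800 ppb the share was 49.7 and 47.6% in the controls and 46.7 and 42.8% at 800 ppb, so both exposed libraries were below both controls. How reads shared by near-identical stretches of paralogs were assigned is not given in the sources used here, and these shares are of reads, not of transcripts.

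**Figure D2:**
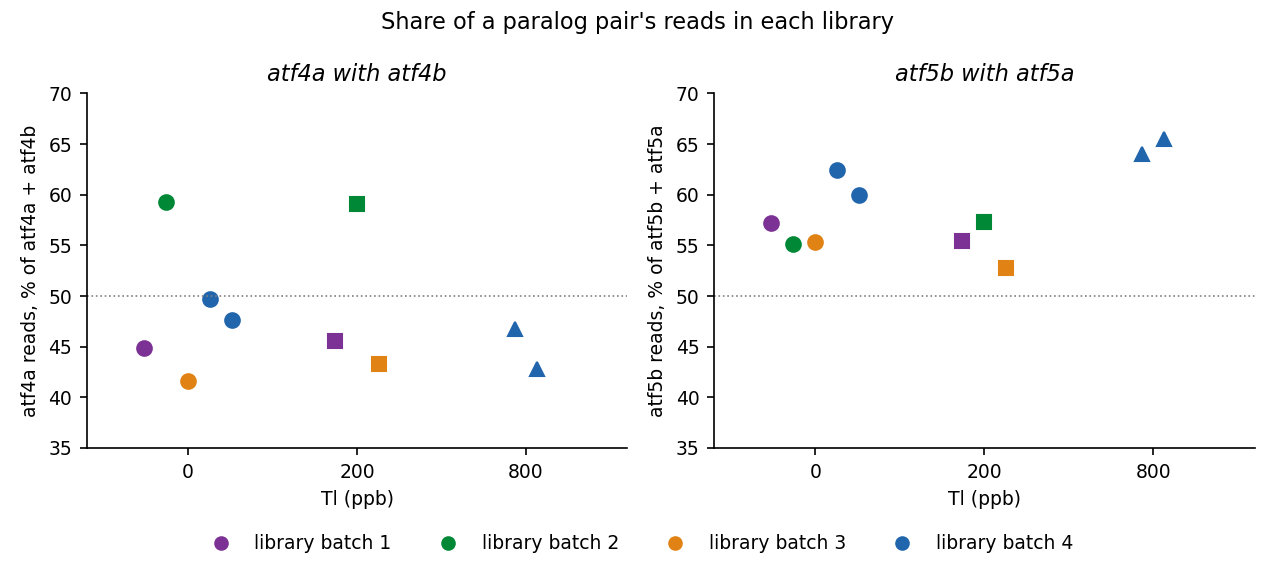
Share of the reads of each paralog pair (y axis, percent, shown from 35 to 70) taken by atf4a (left) and atf5b (right) in each library by thallium concentration; colours mark the library batch, circles, squares and triangles mark 0, 200 and 800 ppb. The atf4a shares of same-coloured libraries at 0 and 200 ppb lie close to each other, while batches range from 41.6 to 59.3%.

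trib3 encodes a pseudokinase that in mammals binds ATF4 and dampens it. It was at 34.9, 40.5, 38.5, 44.1 and 48.0 CPM at 0 ppb, at 32.7, 39.8 and 35.4 CPM at 200 ppb, and at 55.7 and 51.3 CPM at 800 ppb. The controls of the 800 ppb batch were the highest of the 5, and the log2 fold change at 800 ppb was 0.33 (SE 0.13) with the site term and 0.22 (SE 0.09) with the batch term. The 800 ppb libraries were above the others, with 51.3 CPM next to a control at 48.0 CPM.

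ddit3 encodes CHOP, the bZIP factor linked to cell death under prolonged stress. It was at 24.2, 19.2, 19.0, 15.3 and 13.7 CPM at 0 ppb, at 22.4, 20.4 and 18.3 CPM at 200 ppb, and at 21.8 and 15.2 CPM at 800 ppb. The 800 ppb libraries lay inside the range of the controls, and 1 of them lay between its 2 batch controls. The log2 fold change was 0.11 (SE 0.20) with the site term and 0.36 (SE 0.16) with the batch term, and it was -0.18 with the site term without 800 ppb replicate 1.

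chac1 encodes an enzyme that breaks down glutathione and is among the strongest ATF4 targets in mammalian cells. It had 0 reads in all 10 libraries. A count of 0 allows, at 3 counts of a library's total, up to 0.0621 CPM in the deepest library and up to 0.248 CPM in the shallowest. These limits cover counting error only. Whether the counting could assign reads to this gene is not known; if it could not, neither the 0 reads nor the limits bear on its expression. A change of chac1 was not detectable here, and 9 of the 10 members passed the filter on low counts.

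Among these 9 measured members, both 800 ppb libraries were above all 5 unexposed libraries for 7, the exceptions being atf4a and ddit3. Of all 20867 genes tested, 4.87% had that pattern. The same 7 genes had both 800 ppb libraries above both controls of their own batch, a pattern of 16.5% of all genes. For 6 members both 800 ppb libraries were above all 3 at 200 ppb, against 14.5% of all genes. Because this contrast was known when the members were chosen, nothing is read from these counts.

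With edgeR's quasi-likelihood test and Benjamini-Hochberg adjustment over all genes at 0.05, 1 of the 9 members (asns) was called higher at 800 ppb with the site term, where 0.0383% of all genes were called higher. With the batch term 3 members (asns, sesn2 and atf5b) were called higher, and 0.235% of all genes. Within the 4 libraries of the 800 ppb batch alone, 2 members (asns and sesn2) were called higher, and 0.104% of all genes. DESeq2 with the site term called 4 (asns, sesn2, atf3 and atf5b), where it called 0.158% of all genes higher. limma-voom with the site term called 0 members, where it called 0.00958% of all genes higher, and its adjusted p for asns was 0.0548. Its unadjusted p was under 0.05 for 7 of the 9 members, and for 924 of all 20867 genes, 563 of them higher. edgeR on the provider's 8 libraries alone called 0 members too, where it called 0.00488% of all genes higher, with an adjusted p of 0.138 for asns. There edgeR's unadjusted p was under 0.05 for 6 of the 9 members, and for 605 of all 20476 genes, 260 of them higher.

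The asns call with the site term was lost in 9 of the 10 fits that left out 1 library, all but that without 0 ppb replicate 2. With the batch term, the effect at 800 ppb is estimated from the libraries of the 800 ppb batch alone. Leaving out any other library could hardly move the estimate and changed mainly the spread. The asns call with the batch term was not lost in any fit that left out 1 library. Where an 800 ppb library was left out, 1 remained at that dose, and no weight is put on a call there. Over all of these fits the log2 fold change of asns ranged from 0.82 to 1.24. The sesn2 call with the batch term was lost without 0 ppb replicate 5 and without 800 ppb replicate 1. The atf5b call was lost in every fit that kept both 800 ppb libraries. Among those fits atf3, not called with the batch term over all libraries, was called in that without 0 ppb replicate 4. That library was the higher of its 2 batch controls, and without it the log2 fold change of atf3 was 1.63.

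The lower dose gives values less directly tied to the choice of members, since the contrast behind it set 800 ppb against 0 ppb. They are not independent of that choice, as the members were chosen with earlier results of these data known. The unexposed libraries are shared, and fits over all libraries also use the 200 ppb libraries for the spread. The question was whether the genes high at 800 ppb were already higher at 200 ppb. asns was higher at 200 ppb in 3 of 3 batch pairs, by 1.08-fold, 1.17-fold and 1.19-fold. sesn2 was higher in 3 of 3 pairs, by 1.198-fold, 1.35-fold and 1.39-fold. Those were the 2 of 9 members with that pattern, and 11.6% of all genes had it. A difference of 1.195-fold for asns also separated 0 ppb replicate 5 from 0 ppb replicate 4.

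trib3 was lower at 200 ppb in 3 of 3 pairs, by ratios of 0.937, 0.982 and 0.919. It was the 1 member of 9 below in all pairs, a pattern of 12.4% of all genes. The other 6 measured members had pairs on both sides of 1. atf4a ratios were 0.987, 0.991 and 1.03 and atf4b ratios 0.962 and 0.964, with the pair numbered 2 level, the narrowest ranges of the members. atf3 ratios ran from 0.810 to 1.02.

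No member passed the test at 200 ppb. With the replicate number as a block over the 6 paired libraries, the log2 fold change of sesn2 was 0.37 (SE 0.14, unadjusted p = 0.0112) and that of asns 0.19 (SE 0.07, unadjusted p = 0.0139), and edgeR's Benjamini-Hochberg adjusted p was 0.9997 for both. With the site term over all libraries the values were 0.31 (SE 0.21) for sesn2 and 0.20 (SE 0.13) for asns. Leaving out 1 library moved that of sesn2 to 0.07 without 200 ppb replicate 2 and to 0.48 without 200 ppb replicate 3, and that of asns to 0.13 without 200 ppb replicate 2, with 0.24 its highest. With the block over the 6 paired libraries they ranked, by p, 109 and 143 of 19970 genes, of which 2, or 0.01%, were called. The other 7 measured members had block log2 fold changes from -0.09 (atf3) to 0.08 (atf5a) and unadjusted p-values of at least 0.255. With the site term, edgeR called 0 of 20867 genes at 200 ppb, DESeq2 0 and limma-voom 0, with 120 genes at an unadjusted p under 0.05 in edgeR.

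**Figure D3:**
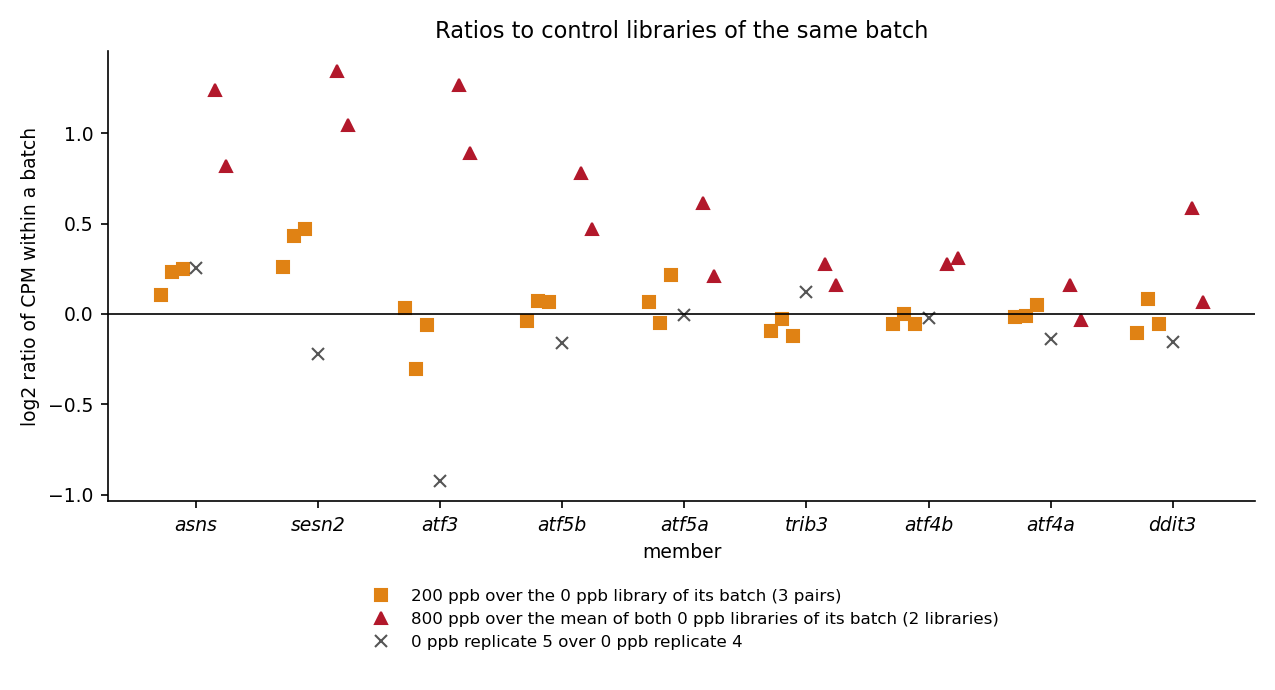
log2 ratio of CPM to unexposed libraries of the same batch (y axis) for each measured member: orange squares are the 3 pairs at 200 ppb, red triangles the 2 libraries at 800 ppb over the mean of their 2 controls, and crosses 0 ppb replicate 5 over replicate 4. All squares of asns and sesn2 lie above 0 and those of trib3 below it; the cross of atf3 at -0.92 shows how far its 2 controls of the 800 ppb batch lay apart.

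Between the exposed groups, the members' log2 fold changes of 800 ppb over 200 ppb with the site term ran from -0.01 (ddit3) to 1.28 (atf3). They were 0.84 (SE 0.16) for asns, 1.004 (SE 0.27) for sesn2 and 0.81 (SE 0.15) for atf5b. This comparison uses the 800 ppb libraries that were known when the members were chosen, and its arms share no batch, so dose and batch cannot be told apart in the site term alone. edgeR called 0 of 20867 genes here with the site term, with 1852 at an unadjusted p under 0.05, and limma-voom called 0. DESeq2 called 0.0958% of all genes higher and among them 3 members, asns, atf3 and atf5b. With the batch term edgeR called 0.0767% of all genes and 0 members.

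The members differed in which libraries set their values. After the mean of each batch was subtracted from log2 CPM, sesn2 was the member most like asns over the 10 libraries (Pearson r = 0.94), followed by atf5b (0.93), atf5a (0.91) and atf4b (0.85). trib3 followed at 0.80, ddit3 at 0.74, atf3 at 0.73 and atf4a at 0.46. These coefficients describe 10 libraries in 4 batches, and asns deviated from its batch mean by 0.31 to 0.73 in the 4 libraries of the 800 ppb batch and by 0.05 to 0.12 in the other 6. Over those 6 libraries at 0 and 200 ppb alone, which are 3 pairs, the coefficient was 0.996 for sesn2, 0.77 for atf5b, 0.60 for atf5a and 0.39 for atf4a. It was below 0 there for ddit3 (-0.10), atf4b (-0.69), atf3 (-0.74) and trib3 (-0.84). Centring makes the 2 libraries of a pair mirror each other, so this coefficient compares only 3 pair differences. As asns rose in all pairs, a gene that rose in all must be above 0 and a gene that fell in all below it. Of all genes, 11.6% rose in all pairs and 12.4% fell in all. The coefficients over these 6 libraries therefore restate the pair ratios. By the coefficient over 10 libraries, among the 18793 genes with a mean of at least 1 CPM, sesn2 stood at 48, atf5b at 77 and atf4a at 3496. By this coefficient 173 genes reached at least 0.9. These ranks rest mostly on the 800 ppb batch, whose contrast was known when the members were chosen, so nothing is read from them.

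The 8 genes most like asns by that measure were hsp70.3 (r = 0.995), pask (0.994), PDK2 (0.988), HSPH1 (0.988), gaa2 (0.985), B4GAT1 (0.984), RIOK3 (0.984) and HSP90AA1 (0.979). Of these 8, hsp70.3, HSPH1 and HSP90AA1 (ENSDARG00000024746), encode chaperones of the cytosolic heat shock response. pask encodes a PAS domain kinase and PDK2 a kinase that inhibits pyruvate dehydrogenase. The size of the difference was not part of the measure: hsp70.3 averaged 14.5 CPM at 0 ppb and 87.7 CPM at 800 ppb, and gaa2 32.4 and 37.9 CPM.

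**Figure D4:**
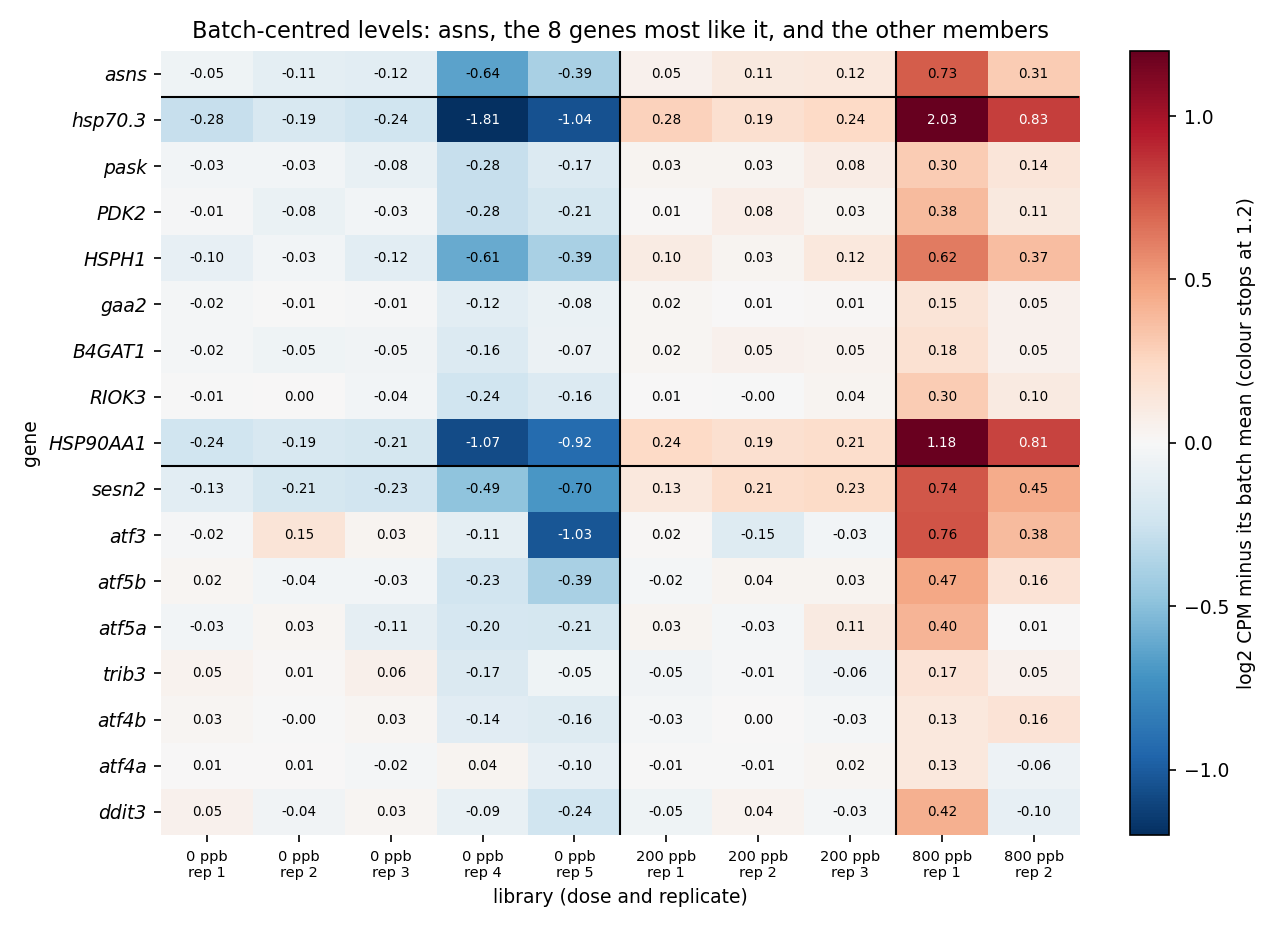
log2 CPM minus the mean of the library's batch (colour and printed value) for asns, the 8 genes most like it and the other 8 measured members (rows) in the 10 libraries (columns). In asns, hsp70.3 and sesn2 the 3 libraries at 200 ppb and both at 800 ppb are above 0, with 800 ppb replicate 1 highest; trib3 is below 0 in all 3 libraries at 200 ppb.

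The other genes of the pathway were taken from 6 lists, of which 102 genes were tested, and set beside 2 lists of neighbouring stress responses. All lists were written with results of these data known. Of the 102, 81 had a log2 fold change above 0 at 800 ppb with the batch term, with a median of 0.19, while 50.5% of all genes were above 0 with a median of 0.00. Of the 102, 12 were called higher and 0 lower, and 49 of the 20867 genes were called higher in all. With the site term 74 of the 102 were above 0, with a median of 0.17, beside 48% of all genes, and 2 were called higher.

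Upstream of ATF4, the list of eIF2alpha kinases and phosphatases had 8 of 13 genes above 0 at 800 ppb with the batch term. Its median was 0.02 and 0 were called. Its kinases were eif2ak1, eif2ak2 and eif2ak3, with their regulators and partners, while eif2ak4 found no match by name and was left out. Whether reads of eif2ak4 were counted under another name or only a gene ID was not checked. The smallest p belonged to eif2ak1, the haem-regulated kinase, at 23.9 to 24.4 CPM in the batch controls and 29.0 to 34.7 CPM at 800 ppb (log2 fold change 0.40, SE 0.12, edgeR's Benjamini-Hochberg adjusted p = 0.361). ppp1r15a, which encodes the stress-induced subunit that directs eIF2alpha dephosphorylation, was at 0.33 (SE 0.14). That value rests on 1 library: ppp1r15a was at 29.4 and 43.8 CPM at 800 ppb, and the batch controls were at 29.1 and 29.6 CPM. Among bZIP partners and other regulators, 14 of 24 were above 0, with a median of 0.05 and 0 called. cebpg, a C/EBP partner of ATF4, had the smallest p there with a log2 fold change of 0.32 (SE 0.09, adjusted p = 0.280 by the same test).

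Serine synthesis and mitochondrial folate genes had 17 of 19 above 0 with the batch term, a median of 0.35 and 4 called higher. They were phgdh (log2 fold change 1.01, SE 0.12) and psat1 (1.003, SE 0.14), which encode the first and the second enzyme of serine synthesis, aldh1l2 (0.85, SE 0.11) of mitochondrial folate metabolism and cbsb (0.44, SE 0.09), a cystathionine beta-synthase gene. phgdh averaged 75.8 ± 8.94 CPM (SD, n = 2) in the batch controls and 152 ± 29.7 CPM (n = 2) at 800 ppb. With the site term 13 of 19 were above 0 and 0 were called, with a median of 0.30.

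Of the amino acid transporter genes 12 of 14 were above 0 with either term. Called with both terms were slc1a4, a neutral amino acid transporter (batch term 1.16, SE 0.16), and SLC7A3 (ENSDARG00000020645, 0.92, SE 0.10), a cationic one. slc3a2b (0.69, SE 0.12) and slc7a5 (0.59, SE 0.11), which encode a heavy and a light chain of large neutral amino acid transport, were called with the batch term only. The slc7a5 value rests on the batch controls, at 19.0 ± 1.14 CPM (SD, n = 2) against 28.7 ± 0.185 CPM (n = 2) at 800 ppb. Over all 5 libraries at 0 ppb slc7a5 averaged 30.2 CPM, with a range of 18.2 to 45.9 CPM that holds both 800 ppb libraries, and its log2 fold change with the site term was 0.03 (SE 0.31). slc1a4 averaged 88.6 ± 19.8 CPM (SD, n = 2) in the batch controls and 198 ± 59.7 CPM (n = 2) at 800 ppb.

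Cytosolic aminoacyl-tRNA synthetase genes, which encode the enzymes that charge tRNAs, had 18 of 19 above 0 with either term. The median was 0.33 with the batch term and 0.43 with the site term. nars1, for asparagine, the product of asns, passed the batch-term test at 0.82 (SE 0.11), as did mars1, for methionine, at 0.52 (SE 0.09). With the site term 0 were called. Among the secreted and other targets 12 of 13 were above 0 with the batch term and 2 were called higher, adm2a (2.04, SE 0.36) and STC2 (ENSDARG00000056680, 1.202, SE 0.20), which encode secreted peptides or glycoproteins. With the site term 9 of 13 were above 0 and 0 were called. adm2a rested on low levels, 1.40 ± 0.0544 CPM (SD, n = 2) in the batch controls and 5.72 ± 0.820 CPM (n = 2) at 800 ppb.

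The medians of the 2 neighbouring responses lay on opposite sides of 0. Genes of the XBP1 and ATF6 branch, the chaperones and factors of the endoplasmic reticulum response, had 2 of 18 above 0 with the batch term and 7 of 18 with the site term, with medians of -0.09 and -0.05 and 0 called. The lowest p there with the batch term belonged to edem1 at -0.26 (SE 0.10). The cytosolic heat shock list had 16 of 17 above 0 with the batch term, a median of 0.50 and 6 called higher, led by hsp70.3 at 2.93 (SE 0.31), and 17 of 17 with the site term with 3 called. The difference between lists was not tested. Of the 41 tissue markers, 16 were above 0 with the batch term and 10 with the site term, with medians of -0.05 and -0.10. Of all genes, 50.5% and 48% were above 0 with these terms. With the batch term 1 marker was called higher (nppa, a heart gene, 0.88, SE 0.16) and 0 lower, and with the site term 0 were called. The summed level of the 3 heart markers ran from 42.2 to 66.4 CPM at 0 ppb and from 39.5 to 63.4 CPM at 200 ppb. At 800 ppb it ran from 58.8 to 73.2 CPM. Mean levels in the controls of the 800 ppb batch and at 800 ppb were 12.9 and 23.5 CPM for nppa. They were 13.8 and 14.8 CPM for cmlc1 and 30.4 and 27.7 CPM for myl7, so the other heart markers did not follow nppa. The part of the heart markers in the members' values was not tested.

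**Figure D5:**
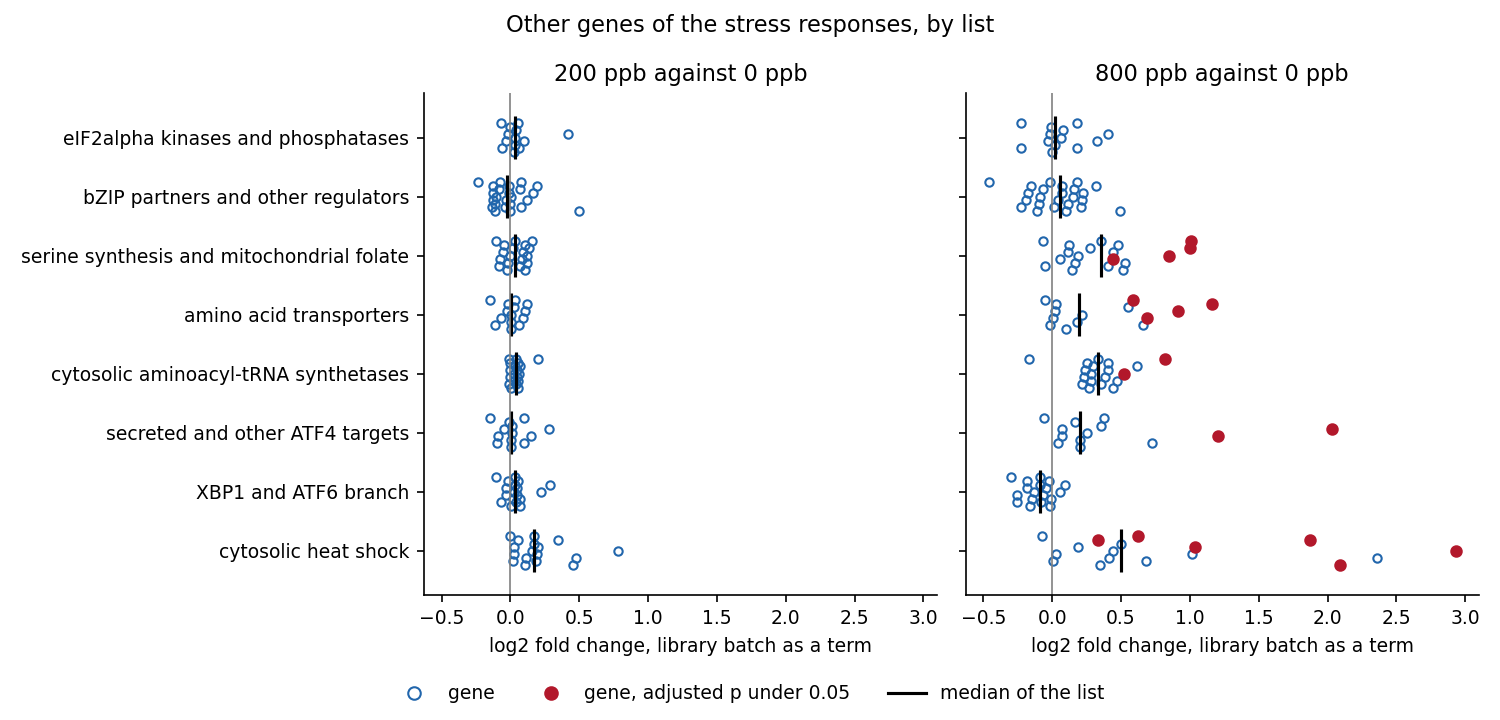
log2 fold changes against 0 ppb (x axis, library batch as a term) of the tested genes in 8 lists at 200 ppb (left) and 800 ppb (right); open circles are genes, filled circles genes with an adjusted p under 0.05, and black lines list medians. At 800 ppb filled circles appear in the serine, transporter, tRNA synthetase, secreted target and heat shock lists, and at 200 ppb in none.

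At 200 ppb the pathway lists had medians near 0. With the replicate block, 61 of 102 pathway genes were above 0 with a median of 0.01, and 0 were called, beside 50.6% above 0, a median of 0.00 and 2 calls over all 19970 genes. nars1 had the smallest p of the synthetase genes at 0.19 (SE 0.06, unadjusted p = 0.00711, edgeR's Benjamini-Hochberg adjusted p = 0.9997). aldh1l2 was at 0.15 (SE 0.07) and slc3a2b at 0.13 (SE 0.06), both uncalled. The heat shock list had 16 of 17 above 0 with a median of 0.17, and hsp90aa1.1 was called (0.35, SE 0.06, adjusted p = 0.0324 by the same test). Whether the lists differed from one another at this dose was not tested.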

How the data were processed

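Each library's deposited file gave raw read counts by Ensembl gene ID, and the 32057 genes found in all 10 were kept; the hospital files held further features with 0.339 and 0.342% of their counts. They also deposited a table of 18963 genes on a log2 scale, from which whole reads were recovered for 100% of values (within 0.05 reads). Recovered totals equalled the counts for the hospital libraries and were 1.12 to 1.19 times as large for the provider's. Correlations of this gene-wise ratio (13229 genes with at least 50 reads) were 0.903 to 0.952 within and 0.747 to 0.817 between the derived batches, with 3 provider batches set. FastQC, cutadapt, STAR, edgeR and the build GRCz11 are named, without roles or versions, per the submitters' processing notes; the counter, annotation and strandedness were not given in the sources used here, so a gene and an antisense partner cannot be told apart. Symbols came from a name table for 28988 genes.

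Counts were filtered by expression within dose groups (20867 genes kept) and tested with edgeR 4.0.16 (TMM, quasi-likelihood F-test, site and dose as terms, R 4.3.3) with Benjamini-Hochberg adjustment at 0.05. The SE given with an edgeR log2 fold change is its absolute value divided by the square root of the F statistic. Alternatives were DESeq2 1.42.0, limma-voom 3.58.1, RLE factors, no filter, batch or replicate terms, library subsets and recovered reads. Replicates 1 to 3 of 0 and 200 ppb pair by the data: their deviations from group means correlated at 0.893, 0.511 and 0.685. The 2 pairs of 0 and 800 ppb did not (-0.141 and 0.038). The members and lists were chosen with earlier results of these data known. All members are named, with up to 4 genes of smallest p per list, comparison and term, and the 8 genes most like asns. The 141 entries of the 8 other lists matched 139 genes, as a name, with or without its paralog letter, could match several. No match by name was found for eif2ak4, fosab, eif4ebp3l, hars1, fgf21, gdf15, hsp90aa1.2 and hsp70.2, which were left out of the lists. Nor was a match found for the tissue markers mylpfa, hbbe1.1, mpeg1.1 and mpx, which were left out too. Whether their reads were counted under another name or only a gene ID was not checked. HSP90AA1 (ENSDARG00000024746), at 90.6 CPM at 0 ppb and 359 CPM at 800 ppb, was not in the heat shock list. Promoter and protein sequences of the members were not analysed here.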

Additional observations from a re-analysis of the deposited data

How the results depend on the processing

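At 800 ppb against 0 ppb the count of called genes was 9 with the site term, 8 with RLE factors and 13 without a filter. It was 43 by DESeq2, 2 by limma-voom, 65 with the batch term, 1 with the provider's libraries only, 16 on recovered reads and 24 within the batch of 800 ppb. Leaving out each library gave 0 to 9 calls. In leave-one-out fits with the batch term, which were chosen after seeing the data, the calls numbered 33 and 114 on leaving out replicate 1 or 2 of 800 ppb, 56 and 52 on leaving out replicate 4 or 5 of 0 ppb, and 45, 41 and 46 on leaving out either library numbered 1, 2 or 3 at 0 or 200 ppb. With the replicate block and site, 6590 genes were called at 800 against 0 ppb and 6747 at 800 against 200 ppb, where the replicate numbers of 800 ppb do not pair samples. At 200 against 0 ppb the count was 0 except with the replicate block, 6 over all libraries and 2 over the 6 paired ones, and in leave-one-out fits it was 0 to 0. At 800 against 200 ppb it was 0 except by DESeq2 (29), with the batch term (16) and with that block. Of the members, asns, sesn2, atf3, atf5a, atf5b, atf4b and trib3 kept a log2 fold change above 0 at 800 ppb in every alternative run. atf4a turned to -0.17 with the replicate block and, with the batch term, to -0.000494 without 0 ppb replicate 5 and -0.034 without 800 ppb replicate 1; ddit3 turned to -0.40 with the block and ranged from -0.18 (without 800 ppb replicate 1) to 0.34 over the leave-one-out fits with the site term and from 0.07 to 0.59 over those with the batch term. At 200 ppb, signs turned for atf5b (0.028 with the batch term, 0.025 with the block over all libraries, 0.029 with the paired block), atf4a (0.0056, 0.00504 and 0.0083 with the same 3, and -0.24 to 0.11 over the leave-one-out fits) and ddit3 (-0.032, -0.036 and -0.034). At 800 against 200 ppb they turned for atf4a (-0.17 with the block) and ddit3 (0.0031 by limma-voom, 0.39 with the batch term, and -0.29 to 0.23 over the leave-one-out fits, above 0 without 0 ppb replicate 2 or 3, 200 ppb replicate 2 or 800 ppb replicate 2). The causes were not tested. Levels by plain totals moved by less than the spread between replicates for 26 of 27 group means; atf4b at 800 ppb moved from 413 to 400.4 CPM. With 2 libraries at 800 ppb, and 76 to 292 reads of sesn2 per library, small differences were not detectable. Promoter motif counts and their narrower window, and the protein comparison of the paralogs, were not run.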
